A study of Mus musculus with 6 samples.

Results

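Formative and primed pluripotency markers are genes that mouse embryonic stem cells (ESCs) switch on, or keep on, as they leave the naive state of the early blastocyst for the state of the post-implantation epiblast. The set named for this comparison holds 8 genes: Otx2, Pou3f1, Zic2, Sox4, Sall2, Foxd3, Utf1 and Fgf5. They were taken by gene symbol from the deposited expression table, in which 7 of the 8 have an entry among 13743 entries in all; Fgf5, a secreted growth factor of the epiblast, was not analysed here. The 7 genes encode transcriptional regulators. They were taken by name, not by a threshold on a measured value, but with earlier results of these data known.

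Total RNA was taken from Dgcr8-/- ESCs of a C57/129 background, 48 h after transfection, for paired-end RNA sequencing in 3 groups of 2 libraries. All 3 groups carry the Dgcr8 mutation, which removes a partner of the nuclease Drosha and with it the canonical microRNAs. The first group received a mimic of miR-294 and the second an siRNA against Mbd2 (siMbd2), with a dose of 50 nM given for mimics and siRNAs. The third group, CTR, is called mock in the deposited table, and what its wells received is not stated. Whether the 2 libraries of a group came from separate cultures is not stated either, so p-values measure only the spread between these libraries, which may be technical.

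Naive ESCs, formative cells and primed epiblast cells all depend on OCT4, but OCT4 acts with different partners in each. OTX2 and POU3F1 are known as partners that move OCT4 to the enhancers of the post-implantation epiblast, and FOXD3 and ZIC2 also bind enhancers used in that transition. miR-294 belongs to the miR-290 cluster, the main microRNAs of mouse ESCs, which promote a rapid cell cycle and which Dgcr8-/- ESCs cannot make. MBD2 is a reader of methylated CpG and a subunit of the NuRD repressor complex.

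The seed of miR-294, bases 2 to 8, is shown because matches to it in the markers are counted next. The mature sequences below are from RefSeq (GRCm38.p6), with the seed in capitals. RefSeq lists 5 mature mouse microRNAs with this seed, and the lines show miR-294 with the others of these 5 that lie on chromosome 7.
mmu-miR-294-3p: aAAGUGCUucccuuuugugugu
mmu-miR-291a-3p: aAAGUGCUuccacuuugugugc
mmu-miR-295-3p: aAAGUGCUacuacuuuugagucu

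None of the 7 markers held a match to this seed of 7 or 8 bases in its longest annotated 3' UTR (GENCODE vM21, GRCm38). The matches searched, on the transcript strand, were AGCACTTA for 8 bases and AGCACTT or GCACTTA for 7. An 8-base match stood in 3.69% of 10806 tested genes with a 3' UTR, and a 7-base match without an 8-base match in 17.2%. The searched 3' UTRs ran from 122 bases in Utf1 to 2780 bases in Sox4. Only Sox4 held the 6-base core GCACTT there, which 33.3% of those genes held. Sox4 also had a 7-base match outside its 3' UTR, in the 5' UTR. Pou3f1 held the 6-base core in its 5' UTR, and Sall2 and Utf1 held it in coding sequence. The share of all genes with matches outside 3' UTRs was not computed. Both Sox4 windows lie on the minus strand of chromosome 13 and are shown with the matched bases in capitals, since the 5' UTR match is the longest found in the transcripts of the 7 markers.
Sox4 3' UTR, chr13:28949533-28949562: acatcttttttGCACTTttttttataaagc
Sox4 5' UTR, chr13:28953184-28953213: tgcccgcagggAGCACTTcagcggtgaggg

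Values are RPKM as deposited, which scale reads by transcript length and by the mapped reads of a library. Changes are differences of log2(RPKM + 1) with standard errors from a limma model of all 6 libraries. A gene was called at a Benjamini-Hochberg adjusted p under 0.05 over the 11428 genes averaging 1 RPKM or more, and "rose", "fell", "higher" and "lower" follow such calls when they refer to a change. All 7 markers passed that minimum. Values after ± are standard deviations over 2 libraries (n = 2). RPKM carry no read counts, so the depth behind a value is unknown.

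The libraries were checked against their labels. Mbd2 stood at 11.3 and 12.3 RPKM in miR-294 libraries and at 7.33 and 6.34 RPKM in siMbd2 libraries, against 26.8 and 27.9 RPKM in CTR libraries. Dgcr8 stood between 6.66 and 8.44 RPKM in all 6 libraries, and a gene-level value cannot show whether its transcript is intact. The ESC factors Pou5f1, Sox2 and Nanog were abundant in all 6 libraries, between 689 and 1059 RPKM, 191 and 289 RPKM, and 206 and 372 RPKM. Pou5f1 was called higher with both treatments than with CTR (log2 changes 0.52 with miR-294 and 0.33 with siMbd2), and Sox2 (-0.51 and -0.42) and Nanog (-0.80 and -0.33) lower. Against CTR, the siMbd2 call of Pou5f1 ended after quantile normalization (adjusted p = 0.0547) and without either siMbd2 library (adjusted p = 0.0519 and 0.0864), and that of Nanog without siMbd2 replicate 2 (adjusted p = 0.0584). Markers of other cell types were present at low to moderate sums. Summed over the entries found, 12 extraembryonic markers came to 58.2 and 56.3 RPKM in miR-294 libraries and 72.2 and 73.5 RPKM in siMbd2 libraries, against 72.8 and 64.3 RPKM in CTR libraries (11 with an entry). In the same way 12 mesendoderm markers came to at most 11.3 RPKM in any library (7 with an entry) and 12 neuroectoderm markers to at most 38.7 RPKM (6 with an entry). The sum of 10 feeder fibroblast markers (4 with an entry) was 5.74 and 5.61 RPKM in miR-294 libraries and 1.78 and 1.86 RPKM in siMbd2 libraries, against 2.66 and 2.48 RPKM in CTR libraries. With no filter on low values 3 feeder markers were called higher with miR-294 than with CTR, and the part of such cells in the marker changes was not tested. The CTR pair was the noisiest, with a median absolute difference between its libraries of 0.136 (log2), against 0.0626 in the miR-294 pair and 0.0602 in the siMbd2 pair.

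Levels of the 7 markers covered a wide range. Utf1, a chromatin-associated regulator of ESCs and epiblast, was the highest in every group, above 98.24% of table entries in miR-294 libraries, 98.01% in siMbd2 libraries and 97.56% in CTR libraries. Below it the order of mean RPKM was Foxd3, Zic2, Otx2, Pou3f1, Sox4 and Sall2 in miR-294 libraries. In siMbd2 libraries it was Zic2, Otx2, Foxd3, Sall2, Pou3f1 and Sox4, and in CTR libraries Zic2, Otx2, Foxd3, Sox4, Sall2 and Pou3f1. Neighbours in these orders did not overlap between their 2 libraries, except Sall2 and Pou3f1 in siMbd2 libraries. Pou3f1 was thus the lowest of the 7 in CTR libraries, at 1.89 ± 0.13 RPKM, and Sall2 the lowest in miR-294 libraries, at 1.65 ± 0.38 RPKM.

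Setting miR-294 libraries against CTR libraries shows how these markers differed after transfection of a single microRNA mimic. With the content of the CTR transfection unknown, a response to any transfected small RNA was not tested apart from that to miR-294. The 7 markers split: Foxd3, Pou3f1 and Utf1 rose and Otx2, Zic2, Sall2 and Sox4 fell. Of all genes tested 64.5% were called in this comparison, 27.7% higher and 36.8% lower, so that 7 of 7 called is a count to be read against a high background. The balance of directions over all genes depended on the scaling. Of called genes 42.9% were higher, against 50.3% with median-of-ratios scaling and 51.3% after quantile normalization. The libraries of the 2 groups did not overlap for any of the 7, which held for 81% of all genes, 35% of them lying wholly higher and 46% wholly lower. Since these are bulk samples, fewer cells of a type and less RNA per cell cannot be told apart.

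Foxd3 encodes a forkhead factor needed to maintain the epiblast and ESCs. It stood at 19.4 and 18.3 RPKM in miR-294 libraries, against 9.03 and 8.57 RPKM in CTR libraries. The miR-294 mean was 2.14 times the CTR mean, a log2 change of 1.02 (SE 0.0756, adjusted p = 1.27e-05 in limma), and 6.97% of tested genes had a larger change in either direction.

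Pou3f1 encodes the POU factor also known as OCT-6, a marker of formative cells and later of neural and glial cells. It stood at 4.71 and 4.45 RPKM in miR-294 libraries, against 1.79 and 1.98 RPKM in CTR libraries. Both miR-294 libraries lay more than 2 RPKM above both CTR libraries, and the log2 change was 0.95 (SE 0.0906, adjusted p = 4.06e-05 in limma). The ratio of mean RPKM, 2.43, was the highest of the 7, and the scale with 1 added to RPKM understates it because the level is low.

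Utf1 stood at 279 and 274 RPKM in miR-294 libraries, against 186 and 142 RPKM in CTR libraries. The CTR libraries differed from each other by more than any other pair did for this gene, but neither reached a miR-294 value. The log2 change was 0.77 (SE 0.108, adjusted p = 3.24e-04 in limma). With quantile normalization it was 0.47 (adjusted p = 0.00198), and it was 0.96 without CTR replicate 1 and 0.57 without CTR replicate 2.

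Otx2, the homeodomain factor of the exit from naive pluripotency, changed in the opposite direction to Foxd3 and Pou3f1. It stood at 7.92 and 6.93 RPKM in miR-294 libraries, against 18.1 and 18.0 RPKM in CTR libraries. It fell by 1.18 on the log2 scale (SE 0.0802, adjusted p = 8.67e-06 in limma), the largest change of the 7, and 4.24% of tested genes had a larger one in either direction. The miR-294 mean was 0.41 of the CTR mean.

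Ratios taken within a library are not changed by a single scaling factor per library, though quantile normalization can change them. Foxd3 RPKM divided by Otx2 RPKM was 2.45 and 2.63 in miR-294 libraries, against 0.498 and 0.477 in CTR libraries. Pou3f1 divided by Otx2 was 0.595 and 0.642 in miR-294 libraries, against 0.0988 and 0.110 in CTR libraries. Otx2 was thus above Foxd3 in both CTR libraries and below it in both miR-294 libraries.

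Zic2, a zinc finger factor of ESC enhancers and of the developing forebrain, fell by less. It stood at 15.2 and 14.7 RPKM in miR-294 libraries, against 20.9 and 20.4 RPKM in CTR libraries (log2 change -0.44, SE 0.0658, adjusted p = 4.63e-04 in limma). Both pairs were tight, and 38.6% of tested genes had a larger change.

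Sall2 encodes a spalt-like zinc finger protein. It stood at 1.92 and 1.38 RPKM in miR-294 libraries, against 3.26 and 2.83 RPKM in CTR libraries (log2 change -0.62, SE 0.1197, adjusted p = 0.00201 in limma). Sall2 had the widest standard error of the 7, and its miR-294 libraries were further apart, relative to their mean, than those of the other 6 markers.

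Sox4, a high-mobility-group factor of the SoxC group, had the smallest change. It stood at 3.53 and 3.92 RPKM in miR-294 libraries, against 4.93 and 4.43 RPKM in CTR libraries (log2 change -0.27, SE 0.0993, adjusted p = 0.0431 in limma). The call ended with median-of-ratios scaling (-0.20, adjusted p = 0.0931) and after quantile normalization (-0.02, adjusted p = 0.839). It also ended with a pseudocount of 0.1 (-0.32, adjusted p = 0.0536) and with the 2 groups fitted alone (-0.27, adjusted p = 0.0597). The same held when any library other than CTR replicate 2 was left out (-0.32 to -0.20). In the annotation 54.6% of the exon bases of Sox4 are shared with a long noncoding gene on the opposite strand, Gm26735. The strand setting of the counting was not given in the sources used here, so reads of the 2 genes may not have been told apart.

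**Figure D1:**
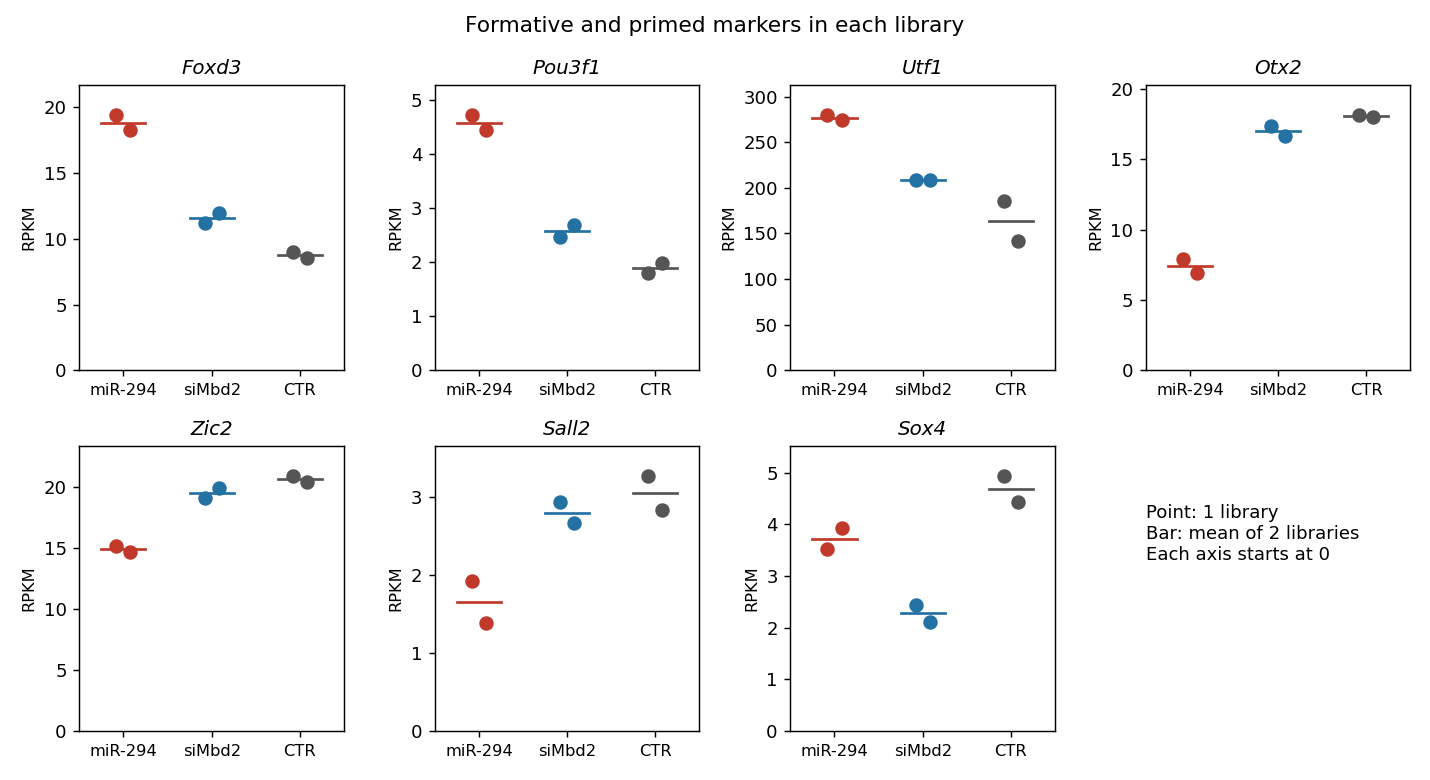
RPKM of the 7 markers in each library, with the miR-294, siMbd2 and CTR groups from left to right; each point is 1 library, each bar the mean of 2 libraries and each axis starts at 0. Foxd3, Pou3f1 and Utf1 stand highest in miR-294 libraries and lowest in CTR libraries, Otx2, Zic2 and Sall2 are low in miR-294 libraries alone, and Sox4 is lowest in siMbd2 libraries.

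Setting siMbd2 libraries against CTR libraries shows how the markers differed after siMbd2, without the microRNA mimic. CTR is the only control here, and the content of its transfection is unknown. A response to any transfected small RNA, or an off-target effect of the siRNA, was therefore not tested apart from reduced Mbd2. Foxd3, Pou3f1 and Utf1 were again higher, Sox4 was lower, and Otx2, Zic2 and Sall2 were not called. Of all genes tested 34.4% were called, 19.5% higher and 14.9% lower, beside 3 of 7 markers higher and 1 of 7 lower. This comparison shares its CTR libraries with the miR-294 comparison, so the same CTR values enter both.

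Sox4 changed the most. It stood at 2.44 and 2.11 RPKM in siMbd2 libraries, against 4.93 and 4.43 RPKM in CTR libraries. It fell by 0.79 on the log2 scale (SE 0.0993, adjusted p = 0.00106 in limma), to 0.49 of the CTR mean. In this comparison 1.90% of tested genes had a larger change in either direction. The call held in each of the other settings in which Sox4 was tested, with values from -1.01 to -0.71, and the limit set by its antisense neighbour applies here too.

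Foxd3 stood at 11.2 and 11.9 RPKM in siMbd2 libraries, against 9.03 and 8.57 RPKM in CTR libraries (log2 change 0.36, SE 0.0756, adjusted p = 0.00820 in limma). The call ended without siMbd2 replicate 2 (0.32, adjusted p = 0.0900). The 2 groups did not overlap for 6 of the 7 markers, 3 lying wholly higher and 3 wholly lower; this held for 67.6% of all genes, 37% wholly higher and 30.6% wholly lower.

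Pou3f1 stood at 2.47 and 2.68 RPKM in siMbd2 libraries, against 1.79 and 1.98 RPKM in CTR libraries (log2 change 0.31, SE 0.0906, adjusted p = 0.0301 in limma). Left out in turn, every library except CTR replicate 2 ended this call, with adjusted p from 0.0593 to 0.189. The log2 change stayed between 0.26 and 0.35 in those fits. The call also ended with the 2 groups fitted alone (adjusted p = 0.0607).

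Utf1 stood at 209 and 208 RPKM in siMbd2 libraries, against 186 and 142 RPKM in CTR libraries (log2 change 0.36, SE 0.108, adjusted p = 0.0327 in limma). Its size rested on the CTR library used: it was 0.55 without CTR replicate 1 and 0.16 without CTR replicate 2 (adjusted p = 1.65e-04 and 0.0120). The call ended when any miR-294 or siMbd2 library was left out, with adjusted p from 0.0553 to 0.138, with no intensity trend (adjusted p = 0.0548) and with the 2 groups fitted alone (adjusted p = 0.0555).

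Otx2 stood at 17.4 and 16.7 RPKM in siMbd2 libraries, against 18.1 and 18.0 RPKM in CTR libraries. Its log2 change was -0.08, with a 95% interval from -0.26 to 0.10 (adjusted p = 0.465 in limma). A change of the size seen with miR-294 lies outside that interval. Zic2 stood at 19.1 and 19.9 RPKM in siMbd2 libraries, against 20.9 and 20.4 RPKM in CTR libraries (log2 change -0.08, interval -0.23 to 0.07, adjusted p = 0.394). Sall2 stood at 2.93 and 2.66 RPKM in siMbd2 libraries, against 3.26 and 2.83 RPKM in CTR libraries (log2 change -0.09, interval -0.36 to 0.18, adjusted p = 0.587), and it was the only marker of the 7 whose libraries overlapped between these groups.

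The direct comparison of miR-294 with siMbd2 tests whether the 2 treatments left a marker at different levels, and it does not use the CTR values except in the shared estimate of spread. All 7 markers were called: Foxd3, Pou3f1, Utf1 and Sox4 were higher with miR-294 and Otx2, Zic2 and Sall2 lower. Of all genes tested 57.4% were called, 21.9% higher and 35.5% lower, so that 38.1% of called genes were higher. That share was 50.6% with median-of-ratios scaling and 51.5% after quantile normalization. The libraries did not overlap for any of the 7, as for 84.1% of all genes, 34.5% wholly higher and 49.6% wholly lower.

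Otx2 had the largest difference, a log2 change of -1.10 (SE 0.0802, adjusted p = 1.82e-05 in limma), with 7.92 and 6.93 RPKM in miR-294 libraries, against 17.4 and 16.7 RPKM in siMbd2 libraries. Foxd3 was higher in miR-294 libraries by 0.66 (SE 0.0756, adjusted p = 1.61e-04) and Pou3f1 by 0.64 (SE 0.0906, adjusted p = 4.64e-04). Utf1 was higher by 0.41 (adjusted p = 0.0112). The 3 markers higher than CTR with both treatments were thus higher with miR-294 than in siMbd2 libraries. The Utf1 call ended with quantile normalization (0.19, adjusted p = 0.105) and when miR-294 replicate 1 or either siMbd2 library was left out (adjusted p from 0.0537 to 0.0572).

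Sox4 was higher in miR-294 libraries by 0.53 (SE 0.0993, adjusted p = 0.00210 in limma), at 3.53 and 3.92 RPKM in miR-294 libraries, against 2.44 and 2.11 RPKM in siMbd2 libraries. Zic2 was lower, with a log2 change of -0.36 (adjusted p = 0.00173), or -0.20 with quantile normalization (adjusted p = 0.0294). Sall2 was lower, with a log2 change of -0.52 (adjusted p = 0.00563), a call that ended without miR-294 replicate 2 (-0.38).

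**Figure D2:**
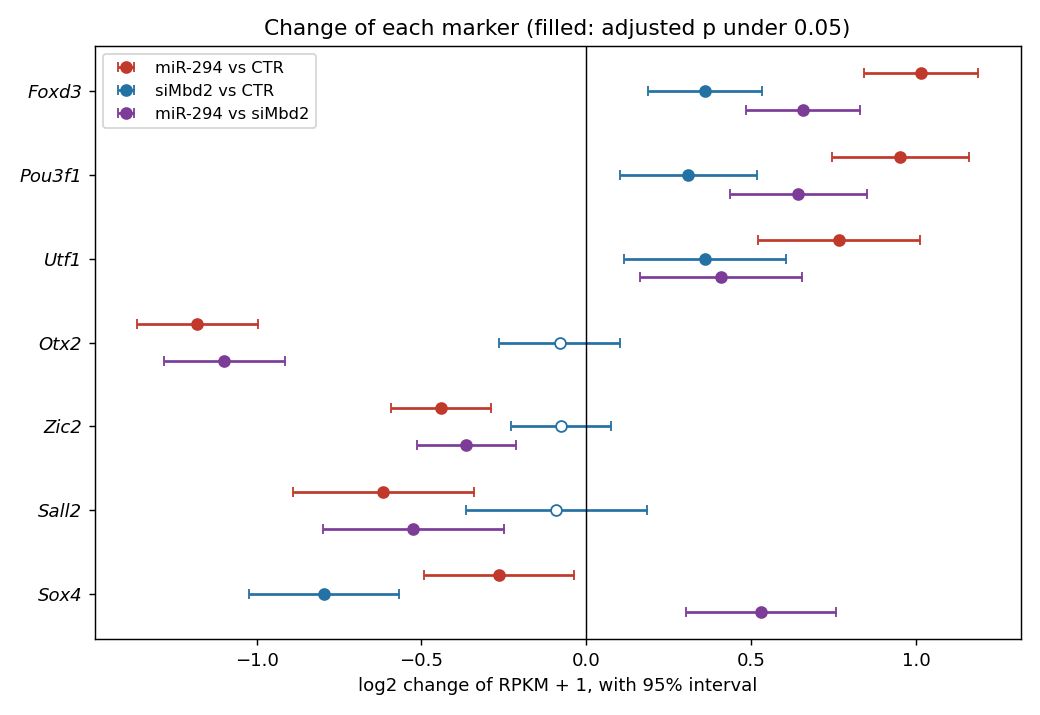
Difference in log2(RPKM + 1) of the 7 markers in the 3 comparisons; points are limma estimates, whiskers their 95% intervals, and filled points have an adjusted p under 0.05. Otx2 lies at -1.18 for miR-294 vs CTR and at -0.08 for siMbd2 vs CTR, while Sox4 lies at -0.27 and -0.79.

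Relatives of the markers did not all move with them under miR-294. They were chosen after the values were seen, from entries of the Otx, Pou3f, Zic, Sall, Foxd and SoxC families. Zic2 has a neighbour, Zic5, that lies 9757 bases away on chromosome 14 in the opposite orientation. Zic5 stood at 9.43 and 10.2 RPKM in miR-294 libraries, against 15.8 and 13.3 RPKM in CTR libraries, so that it fell with miR-294 as Zic2 did (log2 change -0.52, adjusted p = 0.00152). In siMbd2 libraries Zic5 stood at 17.4 and 16.2 RPKM and was not called against CTR (0.20, adjusted p = 0.136; 0.32, adjusted p = 0.0147 without CTR replicate 1).

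The Sall family divided. Sall2 and Sall1 fell with miR-294 (Sall1 log2 change -0.45, adjusted p = 2.55e-04), and Sall3 and Sall4 rose (1.15, adjusted p = 1.55e-05, and 0.75, adjusted p = 1.35e-05). Sall4, the family member that ESCs require, stood at 60.3 and 59.4 RPKM in miR-294 libraries, against 34.5 and 35.7 RPKM in CTR libraries. Sall3 stood at 5.5 and 5.52 RPKM in miR-294 libraries and at 3.26 and 3.45 RPKM in siMbd2 libraries, against 1.80 and 2.08 RPKM in CTR libraries, and was also called with siMbd2 (0.57, adjusted p = 0.00262). The Zic2, Zic5 and Sall calls with miR-294 kept their direction and held under both other scalings, median-of-ratios and quantile. Sall1 and Sall4 were not called with siMbd2 (0.13, adjusted p = 0.132, and 0.13, adjusted p = 0.118); Sall1 was called without CTR replicate 1 (0.17, adjusted p = 0.0281) and Sall4 without CTR replicate 2 (0.15, adjusted p = 0.0421).

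Among SoxC genes, Sox4 was the only one called lower with siMbd2. Sox11 changed by -0.25 (adjusted p = 0.0748; -0.34, adjusted p = 0.0224 without CTR replicate 1) and Sox12 by 0.11 (adjusted p = 0.477; 0.29, adjusted p = 0.00947 without CTR replicate 1, and -0.07, adjusted p = 0.403 without CTR replicate 2). With miR-294, Sox11 rose by 0.34 (adjusted p = 0.0127) and Sox12 fell by 0.39 on the log2 scale (adjusted p = 0.0130). The Sox11 call ended without either miR-294 library (adjusted p = 0.0536 and 0.0737) and the Sox12 call without miR-294 replicate 2 (adjusted p = 0.0678). Otx1, Pou3f2 and Foxd1, relatives of Otx2, Pou3f1 and Foxd3, had means under 1 RPKM and were not tested. Otx1 stood at 0.27 and 0.33 RPKM in miR-294 libraries and at 0.89 and 0.81 RPKM in siMbd2 libraries, against 0.81 and 1.04 RPKM in CTR libraries.

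**Figure D3:**
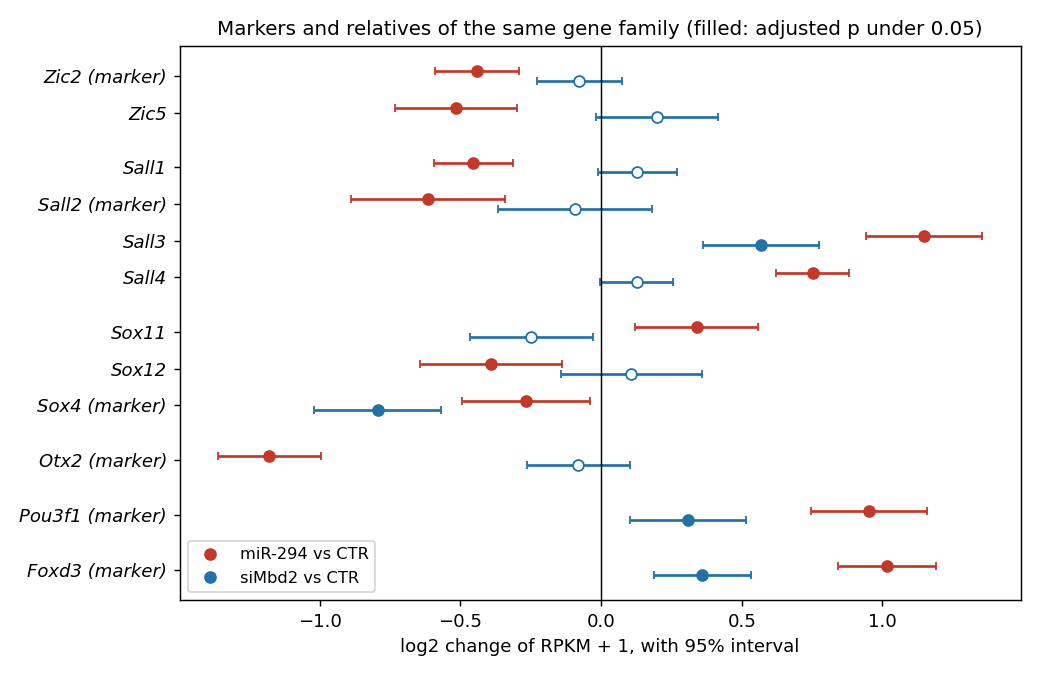
Difference in log2(RPKM + 1) against CTR of the markers other than Utf1 and their tested relatives by gene family; points are limma estimates with 95% intervals, red for miR-294 and blue for siMbd2, and filled points have an adjusted p under 0.05. With miR-294, Sall3 and Sall4 lie at 1.15 and 0.75 while Sall2 lies at -0.62, and Zic5 at -0.52 beside Zic2 at -0.44.

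Other genes of the formative and primed states were mostly higher with miR-294. Their list and those below were chosen with earlier results of these data known. Of 23 such genes 20 were tested, 14 rose and 4 fell with miR-294 (median log2 change 0.69, against -0.08 over all genes tested, of which 27.7% were higher and 36.8% lower), while of the 7 markers 3 rose and 4 fell (median -0.27). With siMbd2 9 of the 20 rose and 1 fell (median 0.18, against 0.02 over all genes tested, of which 19.5% were higher and 14.9% lower). The list is wider than the markers: Lin28a, an RNA-binding protein gene, stood at 90.7 and 91.2 RPKM in miR-294 libraries and at 10.7 and 10.8 RPKM in siMbd2 libraries, against 4.42 and 5.44 RPKM in CTR libraries. Lef1, a WNT effector gene, stood at 4.99 RPKM in both miR-294 libraries and at 0.79 and 1.02 RPKM in siMbd2 libraries, against 0.22 and 0.32 RPKM in CTR libraries. Lef1 averaged under 1 RPKM in the siMbd2 and CTR groups and passed the minimum only through its miR-294 values, as did Sox3. Their place in the counts above thus depended on their miR-294 values. Car14 and Wnt8a, under 1 RPKM in every library, were not tested. Pim2, a kinase gene, and Tcf15, a bHLH factor gene of cells primed to leave the naive state, rose in both comparisons (log2 changes 1.82 and 1.66 with miR-294, and 0.63 and 1.17 with siMbd2). The genes that fell with miR-294, named after their values were seen, were Cdh2 (-1.27), Lin28b (-0.46), Tead2 (-0.35) and Zic5, and Lin28b was the gene that fell with siMbd2 (-0.37, adjusted p = 0.0147). The Lin28b call ended without either siMbd2 library, while 3 genes of the list were lower without CTR replicate 1 and 2 without CTR replicate 2. The Tead2 call with miR-294 ended without CTR replicate 1 or miR-294 replicate 1 (adjusted p = 0.0660 and 0.128).

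Of 20 naive pluripotency genes, 8 were higher and 7 lower with miR-294 (median -0.07), beside 27.7% higher and 36.8% lower of all genes tested. With siMbd2 6 were higher and 5 lower (median 0.07), beside 19.5% and 14.9% of all genes. The siMbd2 counts were 3 higher and 3 lower without siMbd2 replicate 1, and 3 higher and 2 lower without siMbd2 replicate 2. After quantile normalization 3 were higher with siMbd2. Gbx2 rose by 2.33 and Nr5a2 by 1.21 with miR-294, and Pecam1 fell in both comparisons. In miR-294 libraries the sum of these 20 genes was 1314 and 1297 RPKM and in siMbd2 libraries 1369 and 1335 RPKM, against 1387 and 1357 RPKM in CTR libraries. The sum of the 7 markers was 332 and 324 RPKM in miR-294 libraries and 264 and 264 RPKM in siMbd2 libraries, against 244 and 198 RPKM in CTR libraries, and Utf1 made up most of each sum. Neither sum is a score of a cell state. The sum over all entries also differed between libraries, from 429460 RPKM in CTR replicate 2 to 493079 RPKM in miR-294 replicate 1.

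**Figure D4:**
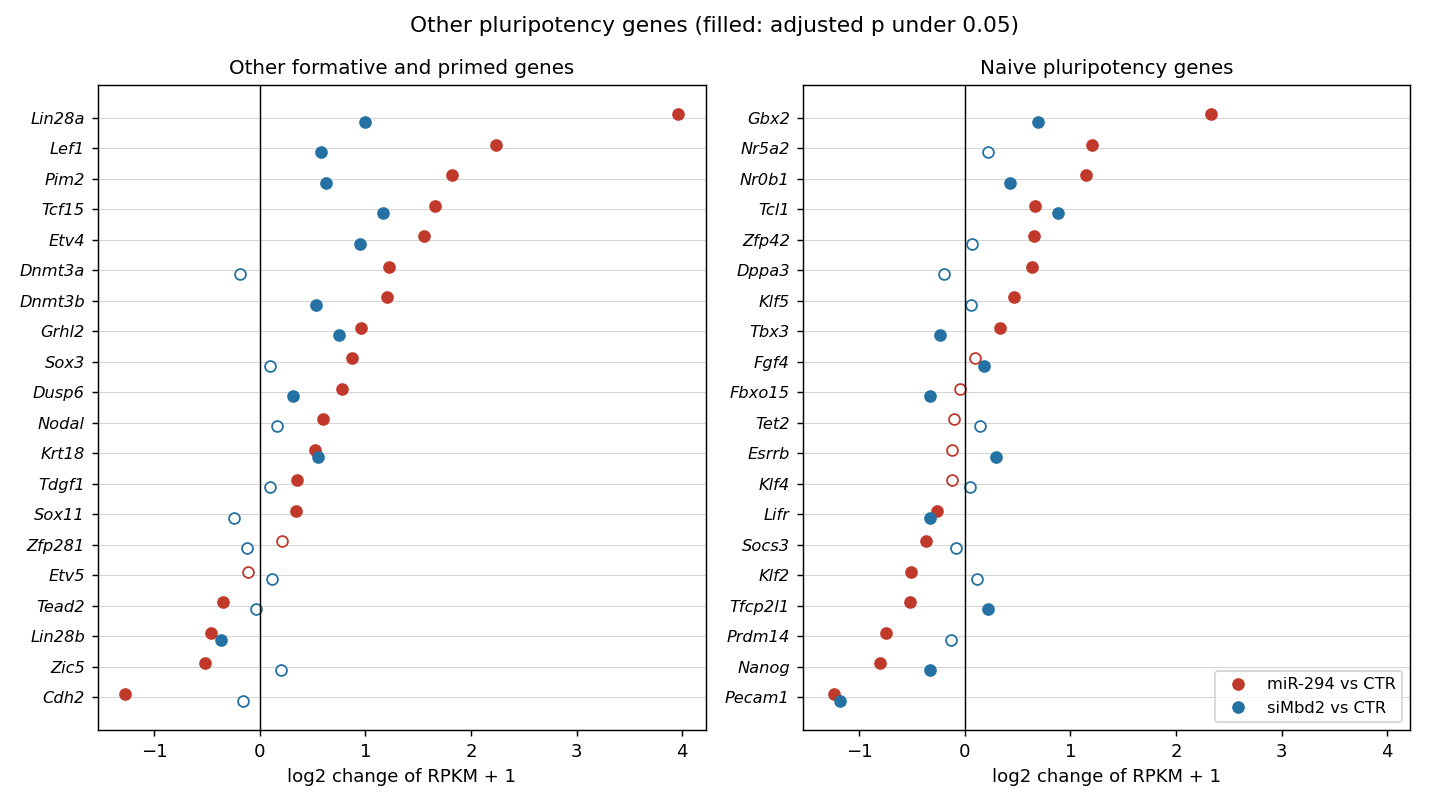
Difference in log2(RPKM + 1) against CTR of the other formative and primed genes (left) and of naive pluripotency genes (right), red for miR-294 and blue for siMbd2, with filled points for an adjusted p under 0.05. On the left, 14 of 20 genes are called higher with miR-294, led by Lin28a; on the right, 8 of 20 are called higher and 7 lower.

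Lineage markers that OTX2, ZIC2 and POU3F1 accompany in the embryo were measured beside them. Of 5 tested neuroectoderm markers 4 fell with miR-294, among them Olig2, Sox1 and Pax6, and none rose, where 36.8% of all genes tested were lower. With siMbd2 3 fell, Olig2, Sox1 and Map2, and 1 rose, where 14.9% of all genes were lower and 19.5% higher. The Map2 call ended without siMbd2 replicate 1 (adjusted p = 0.0636). The summed level of the 6 with an entry was 17.2 and 17.3 RPKM in miR-294 libraries and 31.6 and 30.5 RPKM in siMbd2 libraries, against 38.7 and 37.9 RPKM in CTR libraries. Pax6 stood at 3.81 and 4.58 RPKM in miR-294 libraries and at 10.2 and 8.92 RPKM in siMbd2 libraries, against 9.62 and 9.88 RPKM in CTR libraries. None of these markers was at 0 in all libraries, and their part in the fall of Otx2, Zic2 and Sall2 was not tested. Of 3 tested mesendoderm markers Eomes rose and Gsc and Hhex fell with miR-294. Gsc averaged 0.295 RPKM in miR-294 libraries and passed the minimum through the other groups. Thy1, the only feeder fibroblast marker tested, stood at 3.60 and 3.37 RPKM in miR-294 libraries and at 0.96 and 1.13 RPKM in siMbd2 libraries, against 1.56 and 1.47 RPKM in CTR libraries, while Col1a1 and Pdgfrb were under 1 RPKM in every library.

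For each marker the genes with the most similar profile were sought, by the root mean square distance between centred log2(RPKM + 1) values over the 6 libraries, among 8397 genes averaging 5 RPKM or more. Otx2 was closest to Syap1 (distance 0.0293, against a spread of 0.54 in Otx2 itself) and Kirrel. Foxd3 was closest to Mettl13 (0.0350) and Nsun2, Pou3f1 to Pa2g4 (0.0354) and Nufip2, and Utf1 to the predicted gene Gm8730 (0.0343) and Dhodh. Zic2 was closest to Smurf2 (0.0233) and Ankmy2, and Sall2 to Ext2 (0.0432) and Rai1. Sox4 had the most distant neighbours of the 7, Supt3 (0.0685) and Gstz1. Each neighbour was picked as the nearest of 8397 genes over only 6 libraries, and shared regulation was not tested.

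Promoter windows of 300 bases, from 250 before to 50 after the start, were found in the RefSeq table (GRCm38.p6) for Foxd3, Utf1, Otx2, Sall2 and Sox4; Pou3f1 and Zic2 had none. CpG counts were read because MBD2 binds methylated CpG. Methylation was not measured in these libraries, and a link of CpG count to any change was not tested. The Foxd3 window held 25 CpG, more than 81.6% of 32851 windows, and the Utf1 window held 17, more than 68.6%, against a median of 7. The 4 Otx2 windows held 6 to 16, the Sox4 window 12 and the 2 Sall2 windows 10 and 1, of which the lower exceeds 5.43% of windows. The E-box CACGTG, a word bound by MYC and other bHLH factors, was found on either strand in the Foxd3 window alone among the 5 genes, and in 7.15% of all windows. The octamer core ATGCAAA was in none of these windows (4.63% of all windows), and the OTX core TAATCC in 1 of the 4 Otx2 windows (7.06%). The word in the Foxd3 window starts 217 bases before the gene start, on the plus strand of chromosome 4, and is shown in capitals.
Foxd3 promoter, chr4:99656070-99656099: gtcacgcgcggtCACGTGgccccgcctccc

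The markers lie on 4 autosomes in GRCm38: Foxd3 (99656299 to 99658622) and Pou3f1 (124656807 to 124660655) on chromosome 4, Utf1 (139943789 to 139945112) on chromosome 7, Sox4 (28948919 to 28953713) on chromosome 13, and Otx2 (48657677 to 48673819), Sall2 (52311172 to 52328762) and Zic2 (122475435 to 122479852) on chromosome 14. The 3 on chromosome 14 are also those that fell with miR-294 and were not called with siMbd2, which was seen after the values were known and was not tested. Foxd3, Pou3f1 and Sox4 have a single exon. Besides Sox4, Pou3f1 shares 8.57% of its exon bases with an annotated antisense gene and Otx2 3.65%.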

How the data were processed

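The authors deposited 1 table of RPKM values, 1 column per library, and columns of the authors' ratio of mean RPKM over mock, which were not used for results, per the file headers. Per the submitters' processing notes, CASAVA 1.7, STAR 2.3.0, Cufflinks (no version given) and mm10 were used, without roles. Per the labels each sample averages 2 lanes. The gene annotation was not given in the sources used here.

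Values were analysed as log2(RPKM + 1) for genes averaging 1 RPKM or more, in limma 3.58.1 (R 4.3.3) with 3 groups, an intensity trend, 3 residual and 5.38 prior degrees of freedom, and two-sided tests. An exact permutation test of 2 against 2 libraries cannot give a p under 0.333. The model was tested on simulated data. Alternatives were 2 scalings, pseudocounts of 0.1 and 0.5, filters, no trend, a replicate block, the compared groups alone, and each library left out. Sequences were read with Python 3.11.15.

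The markers and lists were chosen with earlier results of these data known. Named genes were the markers, Mbd2, Dgcr8, Pou5f1, Sox2, Nanog, up to 4 called genes per list with the largest changes, and 2 nearest profiles per marker; family relatives and formative genes that fell were added after their values were seen. The lists were other formative and primed, naive, core ESC, mesendoderm, neuroectoderm, extraembryonic and feeder fibroblast genes. Extraembryonic markers gave 2 higher and 2 lower of 6 tested in both treatments against CTR, and core ESC genes 5 higher and 3 lower of 8 with miR-294 and 2 and 2 with siMbd2. Of all genes tested 27.7% were higher and 36.8% lower with miR-294, and 19.5% and 14.9% with siMbd2. The core list shares Tdgf1 with the formative list and Nanog and Zfp42 with the naive list. Core ESC genes higher with miR-294 were 3 after quantile normalization. Those higher with siMbd2 were 4 without CTR replicate 2, 0 in limma without siMbd2 replicate 1 or without siMbd2 replicate 2 (1 and 2 at an unadjusted p under 0.05), and 1 after quantile normalization, with the 2 groups fitted alone or without either miR-294 library. Those lower with siMbd2 were 1 without siMbd2 replicate 2. Extraembryonic markers lower with siMbd2 were 1 after quantile normalization, with the 2 groups fitted alone and without any library but CTR replicate 2. With no filter 6 were higher with miR-294 than with CTR, and a minimum mean of 5 RPKM left 1 call in each direction. A gene of the formative list and of a marker's family is not reported here.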

Additional observations from a re-analysis of the deposited data

How the results depend on the processing

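Of 306 values of the 7 markers under other settings, 279 kept direction and call, 27 kept direction and lost the call, and none reversed. The cause of these losses was not tested. Direction could not change with another filter, no trend, the replicate block, the compared groups alone, or a library of the uncompared group left out. Those settings leave the estimate as it was and bear only on the call. The marker calls for miR-294 vs CTR were 3 higher in every fit that left out a library and 3 to 4 lower. For siMbd2 vs CTR they were 0 to 3 higher, with 1 lower throughout, and for miR-294 vs siMbd2 3 to 4 higher and 2 to 3 lower. These counts stand beside a high background. In the main fit 27.7% of all genes tested were higher and 36.8% lower for miR-294 vs CTR. The shares were 19.5% and 14.9% for siMbd2 vs CTR, and 21.9% and 35.5% for miR-294 vs siMbd2. With only the compared groups in the fit, 1 marker was higher with siMbd2 than with CTR, as were 1766 of 11428 genes tested. With a minimum mean of 5 RPKM Pou3f1, Sox4 and Sall2 were not tested, which by itself lowers the counts: 2 markers were lower with miR-294 than with CTR, 0 lower with siMbd2 than with CTR (also 0 at an unadjusted p under 0.05 in limma) and 2 higher with miR-294 than with siMbd2.

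The replicate numbers were not shown to pair the libraries. The difference between replicates 1 and 2 correlated across genes by 0.119 between CTR and miR-294, 0.132 between CTR and siMbd2 and 0.0218 between miR-294 and siMbd2. With the replicate block the marker counts were the same, 3 higher and 4 lower for miR-294 vs CTR. Of 11428 genes tested 3263 were higher and 4342 lower in that fit.

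Over all genes, calls for siMbd2 vs CTR, 2231 higher and 1702 lower, were 3350 higher without CTR replicate 1, 1028 and 828 without siMbd2 replicate 1, 848 and 562 without siMbd2 replicate 2, and 1101 lower with a minimum mean of 5 RPKM. For miR-294 vs siMbd2 38.1% of called genes were higher, against 50.6% with median-of-ratios scaling and 51.5% after quantile normalization, where the median change of all genes was 0.03 in place of -0.08.

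Changes of other named genes that turned direction were not called in the main analysis or after turning. With quantile normalization Dgcr8 was 0.019 for miR-294 vs CTR, and for miR-294 vs siMbd2 Dgcr8 was 0.11, Pou5f1 -0.0128, Lin28b 0.085, Pecam1 0.064 and Hhex 0.10. Zfp42 was -0.021 for siMbd2 vs CTR. After median-of-ratios scaling, for miR-294 vs siMbd2, Dgcr8 was 0.019, Sox2 0.014 and Pecam1 0.042. With 1 library left out in turn, Pecam1 ranged from -0.13 to 0.015 for miR-294 vs siMbd2, and for siMbd2 vs CTR Pax6 ranged from -0.12 to 0.057, Tead2 from -0.21 to 0.13 and Sox12 from -0.071 to 0.29. Depth is unknown, so no limit from counting can be given.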
